A study of Mus musculus with 47 samples.

Results

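The prostaglandin and leukotriene genes described here are 9 genes whose products turn arachidonic acid into lipid signals or clear them: Ptgs1, Ptgs2, Ptges, Hpgds, Tbxas1, Hpgd, Alox5, Alox5ap and Ltc4s. They were found by symbol, and all 9 were listed in every table, out of 51912 genes listed for the primary macrophages. They were chosen by earlier results of these same libraries, among them the low Hpgd and high Ptgs2 counts of Zmynd8 cKO cells, so every value is given as a description, and no difference between conditions was tested. The name "enzymes" holds for 8 of the 9, since Alox5ap encodes an activating protein, and Hpgd encodes an enzyme that breaks prostaglandins down.

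Arachidonic acid is freed from membrane lipids and then enters either of a pair of main routes. Cyclooxygenases, encoded by Ptgs1 and Ptgs2, make prostaglandin H2, from which terminal synthases make prostaglandin E2 (Ptges), prostaglandin D2 (Hpgds) or thromboxane A2 (Tbxas1), and the dehydrogenase encoded by Hpgd inactivates prostaglandins. 5-Lipoxygenase (Alox5), with its activating protein (Alox5ap), makes leukotriene A4, and Ltc4s joins it to glutathione to give leukotriene C4. In macrophages Ptgs2 and Ptges are known as genes induced by bacterial products, whereas Ptgs1 is widely expressed without stimulation.

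RNA-seq was analysed in 12 of the 47 samples, and the other 35, from chromatin assays, were not analysed here. Bone marrow-derived macrophages (BMDMs) are cultured from marrow cells with the growth factor M-CSF. WT BMDMs came from littermates with both Zmynd8 alleles floxed (Zmynd8 fl/fl) and no Cre, and Zmynd8 cKO BMDMs carried the same alleles with Cre expressed from the Lyz2 locus, which is active in macrophages, neutrophils and other myeloid cells. ZMYND8 is a chromatin reader. BMDMs of each genotype were left non-treated (NT) or treated for 6 h with LPS (100 ng/ml), a component of bacterial walls, or with the cytokine IL-4 (20 ng/ml). The ages of the mice that gave marrow are not given in the sources used here. A further 6 libraries are labelled Raw264.7, a mouse macrophage line.

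In 3 of the libraries labelled Raw264.7, Zmynd8 had been knocked out by CRISPR, and the cells expressed Zmynd8 again (WT Zmynd8), a mutant with the acidic residues of its disordered region changed to alanine (D/E-A), or neither (Zmynd8 KO). Their labels name no treatment, and the study describes the D/E-A comparison after LPS. The other 3 libraries are labelled p65 KO with LPS, and the cells expressed WT p65, the p65 mutant K122R, or neither (p65 KO). p65, encoded by Rela, is a subunit of NF-κB. The deposited column for WT p65 does not name p65 KO, so unmodified cells cannot be told apart from re-expressing ones. The dose and time of LPS for these lines are not given in the sources used here. By the Methods each BMDM library was made from a mix of 3 biological replicates, and for the libraries labelled Raw264.7 mixing is not given in the sources used here. Each group has 1 library, there is no replicate spread, and no difference has a replicate check.

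Libraries held from 15127110 to 28386612 counts. In the knock-out designs the targeted gene was looked at first. Zmynd8 had 2284 counts in WT and 1842 in Zmynd8 cKO without treatment, 1967 and 2033 with LPS, and 3636 and 3944 with IL-4. Whole-gene counts of a gene from which only some exons are deleted do not check the deletion. Zmynd8 had 485 reads with WT Zmynd8, 497 with D/E-A and 121 in Zmynd8 KO, the last being the single value of that library that was not a whole number of reads. Rela had 1601 reads with WT p65, 5850 with K122R and 765 in p65 KO. Macrophage markers (5 genes: Adgre1, Csf1r, Cd68, Mertk, Fcgr1) were above 0 in all 12 libraries. Mertk, however, had only 4, 3 and 2 reads in the WT p65, K122R and p65 KO libraries. In BMDMs the 5 markers summed to between 5654 and 8701 CPM, counts scaled to the library total. The sum was between 1969 and 3244 CPM in the Zmynd8 libraries and between 868 and 1064 CPM in the p65 libraries. After LPS, Nos2 was 186078 counts in WT and 229 without treatment, and after IL-4 Arg1 was 42592 counts in WT and 20 without treatment. These are the directions these marker genes are known for. Arg1 was also higher after LPS in WT, at 659 counts. After IL-4 in WT, Nos2 was lower, at 35 counts, while Il1b, which responds to LPS, had 374 counts against 42 without treatment.

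Several libraries stood apart. In such bulk libraries fewer cells of a type and less RNA per cell cannot be told apart. The sum of 8 neutrophil markers was 382 CPM in WT and 514 CPM in Zmynd8 cKO after IL-4, led by S100a9, against 2.33 to 4.22 CPM in the other 4 BMDM libraries, where 2 to 5 of the 8, Elane each time among them, were at 0. The same sum was 10354, 4422 and 6966 CPM in the WT Zmynd8, D/E-A and Zmynd8 KO libraries, with none of the 8 at 0, and at most 0.319 CPM in the 3 p65 libraries, where 5 of the 8 were not listed. Xist, the RNA of the inactive X chromosome, had 8467, 8062 and 7109 reads in the WT Zmynd8, D/E-A and Zmynd8 KO libraries and 2, 0 and 3 in the WT p65, K122R and p65 KO libraries, although Raw264.7 is a line from a male mouse. The labels give all 12 libraries the strain C57BL/6 and the source bone marrow, whereas Raw264.7 was made from BALB/c tumour cells. For these reasons the first 3 are called by their labels only, and no level was compared between the Zmynd8 and p65 libraries with a ratio. The part of these differences in the results below was not tested. The IL-4 libraries are numbered apart from the NT and LPS libraries in their titles and stand in a table with other gene lengths, so the effect of IL-4 cannot be told apart from a difference between sequencing runs, if there was one.

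The promoters of the 5 genes with the widest swings between treatments are shown as the sequence before their RefSeq starts. Counts are per gene, and which start was used was not measured. Each is the 250 bases before the RefSeq start in GRCm38.p6 (mm10), read 5′ to 3′ on the gene's strand, with matches to the motifs named after the sequences in capitals. Ptgs2 (chr1:150099781-150100030, plus strand) and Ptges (chr2:30903298-30903547, minus strand) were the 2 members with more RNA after LPS. Ptgs1 (chr2:36230176-36230425, plus strand), Hpgd (chr8:56294302-56294551, plus strand) and Ltc4s (chr11:50238533-50238782, minus strand) had more RNA after IL-4 than without treatment in both genotypes.
Ptgs2: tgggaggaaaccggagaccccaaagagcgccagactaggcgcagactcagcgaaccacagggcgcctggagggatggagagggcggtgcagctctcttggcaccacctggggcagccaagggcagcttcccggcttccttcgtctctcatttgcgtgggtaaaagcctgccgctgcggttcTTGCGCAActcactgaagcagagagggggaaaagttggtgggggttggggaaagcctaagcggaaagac
Ptges: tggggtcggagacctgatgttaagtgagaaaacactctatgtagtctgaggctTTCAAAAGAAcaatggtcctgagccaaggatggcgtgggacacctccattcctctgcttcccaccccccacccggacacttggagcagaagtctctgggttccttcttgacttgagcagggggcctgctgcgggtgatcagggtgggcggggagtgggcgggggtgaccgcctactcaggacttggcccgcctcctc
Ptgs1: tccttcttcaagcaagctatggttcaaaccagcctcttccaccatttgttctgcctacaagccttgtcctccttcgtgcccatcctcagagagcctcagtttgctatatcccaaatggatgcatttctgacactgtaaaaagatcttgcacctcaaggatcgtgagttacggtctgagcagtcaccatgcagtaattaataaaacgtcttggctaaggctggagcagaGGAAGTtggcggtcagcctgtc
Hpgd: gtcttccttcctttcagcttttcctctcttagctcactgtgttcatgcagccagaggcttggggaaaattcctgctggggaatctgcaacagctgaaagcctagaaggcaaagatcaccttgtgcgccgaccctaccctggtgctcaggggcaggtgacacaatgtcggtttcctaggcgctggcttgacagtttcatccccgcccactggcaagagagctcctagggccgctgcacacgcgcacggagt
Ltc4s: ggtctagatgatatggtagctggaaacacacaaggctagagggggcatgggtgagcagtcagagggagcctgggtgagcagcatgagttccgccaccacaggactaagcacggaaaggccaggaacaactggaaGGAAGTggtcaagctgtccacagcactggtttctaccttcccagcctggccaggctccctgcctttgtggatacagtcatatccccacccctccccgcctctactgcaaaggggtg

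RefSeq promoter windows of 300 bases (250 before and 50 after the start) were found for 8 of the 9 members, and both strands were searched. The 8-base C/EBP motif TTGCGCAA stood 69 bases before the start of Ptgs2 and in 0.183% of 32851 windows. The STAT6 motif TTCNNNNGAA matched in Ptges and Tbxas1 and in 6.95% of windows. The PU.1 core GGAAGT matched in Ptgs1, Hpgds and Ltc4s and in 23.8% of windows. The NF-κB consensus matched in none of the members' windows and in 4.51% of all windows. The E-box CACGTG matched in Ptgs2, just after the start, and in 7.15% of windows. The TATA box TATAAA matched in Tbxas1 and, after the start, in Hpgd, and in 13.6% of windows, and the AP-1 motif TGANTCA matched in Tbxas1 and in 7.81% of windows. A match is a run of letters, and the window does not reach enhancers.

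In non-treated BMDMs the leukotriene helper Alox5ap, the thromboxane synthase Tbxas1 and the prostaglandin D2 synthase Hpgds held most of the RNA of the 9 genes. On the deposited TPM scale, which divides counts by gene length so that genes can be set side by side, Alox5ap was at 501 TPM in WT and 629 TPM in Zmynd8 cKO. Tbxas1 was at 156 and 154 TPM, and Hpgds at 90.3 and 54.5 TPM. The other 6 were low: Ltc4s was at 7.38 and 12.1 TPM, Ptgs1 at 3.22 and 3.65, Ptges at 1.65 and 1.36, Alox5 at 0.97 and 1.31, Hpgd at 0.64 and 0.58, and Ptgs2 at 0.30 and 0.16. Each level comes from a single library, so neighbours in this order have no spread by which to be told apart.

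After LPS the order turned over. The highest member was Ptges in WT, at 101.5 TPM, and Ptgs2 in Zmynd8 cKO, at 133.6 TPM, with Ptgs2 at 55.5 TPM in WT and Ptges at 59.7 TPM in Zmynd8 cKO. Alox5ap stood at 78.7 and 73.6 TPM, Tbxas1 at 57.8 and 86.6 TPM and Hpgds at 16.2 and 17.7 TPM. Ptgs1, Hpgd, Alox5 and Ltc4s were each at or below 1.1 TPM in both genotypes. After IL-4 Alox5ap was again highest, at 418 TPM in WT and 413 TPM in Zmynd8 cKO, followed by Tbxas1 at 263 and 200.1 TPM and Ltc4s at 186 and 168 TPM. Ptgs1 reached 135 TPM in WT and 63.7 TPM in Zmynd8 cKO, against 46.4 and 42.4 TPM for Hpgds.

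**Figure D1:**
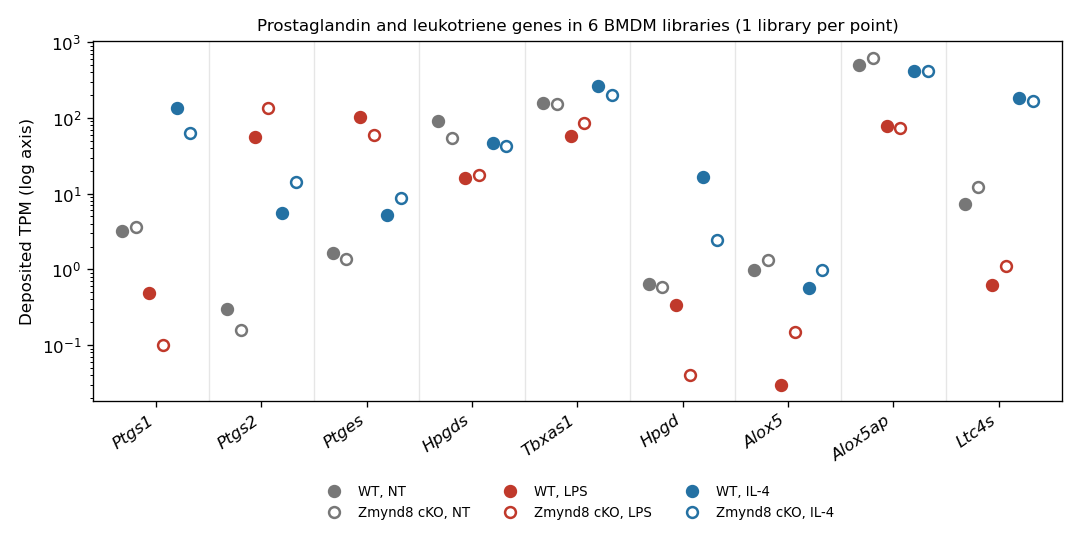
Deposited TPM (log axis) of the 9 genes in the 6 BMDM libraries, with filled points for WT and open points for Zmynd8 cKO, grey for NT, red for LPS and blue for IL-4, and 1 library per point. Ptgs2 runs from 0.16 TPM in NT Zmynd8 cKO to 133.6 TPM in LPS-treated Zmynd8 cKO, while Alox5ap stays above 73 TPM in all 6 libraries.

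The 2 cyclooxygenase genes moved to opposite ends. In TPM, Ptgs1 exceeded Ptgs2 by 10.7 times in NT WT and 22.8 times in NT Zmynd8 cKO, ratios resting on 24 and 13 counts of Ptgs2. After LPS, Ptgs2 exceeded Ptgs1 by 113 times in WT and 1336 times in Zmynd8 cKO, where Ptgs1 had 23 and 4 counts. After IL-4, Ptgs1 again exceeded Ptgs2, by 24.6 times in WT and by 4.43 times in Zmynd8 cKO. Of the terminal synthases, Hpgds exceeded Ptges by 54.7 and 40.1 times without treatment and by 8.78 and 4.87 times after IL-4, and Ptges exceeded Hpgds by 6.26 and 3.37 times after LPS, in WT and Zmynd8 cKO in that order.

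The effect of each treatment was measured as the log2 ratio of CPM in treated over NT cells of the same genotype. Genes averaging at least 10 counts over both libraries were kept, and a kept gene counts as called where its CPM differed 1.2-fold or more. Limits in brackets are 95% exact binomial (Clopper-Pearson) limits on the reads and, like all limits here, cover counting error only. After LPS the median log2 ratio of all genes was -0.70 in WT and -0.65 in Zmynd8 cKO under library totals, and -0.11 and -0.09 when scaled by trimmed means (TMM). All 9 members were called in WT, 2 higher and 7 lower, where 87.8% of 12813 genes were called, 22.9% higher and 64.9% lower. In Zmynd8 cKO 8 were kept and called, 2 higher and 6 lower, where 87.8% of 12666 genes were called, 26% higher and 61.8% lower. At a fold change of 2 or more there were 8 members in each genotype, beside 53.6% of all genes in WT and 55.5% in Zmynd8 cKO. A call in this comparison is therefore no mark of the members. The members' median log2 ratio was -2.20 in WT and -2.73 in Zmynd8 cKO.

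Ptgs2, the inducible cyclooxygenase, had 24 counts in NT WT and 4351 after LPS, and 13 and 9384 in Zmynd8 cKO. The log2 ratios were 7.58 (7.001 to 8.22), or 191-fold, and 9.44 (8.67 to 10.35), or 696-fold, and 8.27 and 10.09 relative to the median of all genes. Ptges, which makes prostaglandin E2, had 110 and 5178 counts in WT and 71 and 2915 in Zmynd8 cKO. Its log2 ratios were 5.63 (5.36 to 5.92) and 5.31 (4.97 to 5.67). These 2 genes, whose promoters are printed first, were the only members higher after LPS, in both genotypes and under each of the scalings tried. With 1 CPM added to each level before the ratio (a pseudocount of 1), which pulls in the ratios of genes with few counts, Ptgs2 was at 6.52 in WT and 7.99 in Zmynd8 cKO. Dendritic cell markers, led by Xcr1, moved with LPS too, from 1.56 to 10.8 CPM in WT and from 0.62 to 13.9 CPM in Zmynd8 cKO, and their part was not tested.

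The other members were lower after LPS. Hpgds had 4077 counts in NT WT and 845 after LPS, a log2 ratio of -2.20 (-2.31 to -2.09), and 2915 and 721 in Zmynd8 cKO, a ratio of -2.07. Tbxas1 had 5194 and 1925 counts in WT and 5136 and 2260 in Zmynd8 cKO, with log2 ratios of -1.36 and -1.24, or -0.66 and -0.59 relative to the median of all genes. Alox5ap had 7154 and 1123 counts in WT, a log2 ratio of -2.60 (-2.69 to -2.51), and 9379 and 922 in Zmynd8 cKO, a ratio of -3.40 (-3.50 to -3.30). The 3 genes with ample counts were thus all lower by more than the median gene.

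The low members had few counts left after LPS. Ptgs1 had 147 and 23 counts in WT and 151 and 4 in Zmynd8 cKO, log2 ratios of -2.60 (-3.30 to -1.96) and -5.29 (-7.19 to -3.90). Ltc4s had 53 and 4 counts in WT and 91 and 7 in Zmynd8 cKO, with log2 ratios of -3.65 and -3.75. Alox5 had 45 and 2 counts in WT and 48 and 2 in Zmynd8 cKO, which gives ratios with wide limits, -7.51 to -2.48 and -7.72 to -2.71. Hpgd had 17 and 9 counts in WT, a log2 ratio of -0.84 whose limits of -2.19 to 0.40 include no change, and 16 and 1 counts in Zmynd8 cKO. Under TMM the Hpgd ratio in WT was -0.26 and lost its call. With a pseudocount of 1 the ratios in WT and Zmynd8 cKO were -1.78 and -2.71 for Ptgs1, -1.38 and -1.95 for Ltc4s and -1.33 and -1.53 for Alox5. Megakaryocyte and platelet markers moved with LPS too, from 4.46 to 2.33 CPM in WT and from 7.79 to 0.90 CPM in Zmynd8 cKO. Among them Ppbp fell from 113 to 19 and from 165 to 0 counts, while Itga2b rose from 4 to 32 and from 10 to 17. The part of these markers in the ratios was not tested.

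IL-4 went with another set. In WT 8 of the 9 were called, 6 higher and 2 lower, where 68.8% of 13090 genes were called, 44% higher and 24.8% lower. In Zmynd8 cKO 8 were called, 5 higher and 3 lower, where 74.6% of 12966 genes were called, 46.8% higher and 27.8% lower. At a fold change of at least 2 the members counted 7 in WT, beside 24.8% of all genes, and 5 in Zmynd8 cKO, beside 29.7%. The median of all genes was 0.17 in WT and 0.19 in Zmynd8 cKO under library totals, and -0.01 and -0.03 under TMM.

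Ptgs1 had 147 counts in NT WT and 5637 after IL-4, and 151 and 2531 in Zmynd8 cKO. The log2 ratios were 5.15 (4.91 to 5.39), or 35.4-fold, and 3.86 (3.62 to 4.10), or 14.5-fold. Ltc4s, the leukotriene C4 synthase, had 53 and 1415 counts in WT and 91 and 1206 in Zmynd8 cKO, with log2 ratios of 4.62 (4.23 to 5.05) and 3.52 (3.21 to 3.84). Hpgd, the prostaglandin dehydrogenase, had 17 and 473 counts in WT, a log2 ratio of 4.68 (3.99 to 5.47), and 16 and 65 in Zmynd8 cKO, a ratio of 1.81 (1.01 to 2.70). Each of these 3 genes was higher after IL-4 in both genotypes, by less in Zmynd8 cKO than in WT. For Ltc4s the genotypes differed mainly without treatment, with a log2 ratio of Zmynd8 cKO over WT of 0.99 in NT and -0.11 after IL-4. The same ratios were 0.25 and -1.04 for Ptgs1 and 0.13 and -2.74 for Hpgd.

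Ptgs2 and Ptges were higher after IL-4 as well, by less than after LPS. Ptgs2 had 465 counts after IL-4 in WT, a log2 ratio of 4.16 (3.57 to 4.82), and 1140 in Zmynd8 cKO, a ratio of 6.24 (5.47 to 7.16). Ptges had 294 and 579 counts, with log2 ratios of 1.30 (0.98 to 1.63) and 2.82 (2.46 to 3.19). Here the ratio was larger in Zmynd8 cKO for both genes. With a pseudocount of 1 the ratios of Ptgs2 were 3.18 and 4.82, and those of Hpgd 3.42 and 1.03.

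Among the remaining members, Tbxas1 was higher in WT, with 10083 counts after IL-4 and a log2 ratio of 0.84 (0.79 to 0.89), and at 0.23 in Zmynd8 cKO, below the fold rule. Hpgds was lower, with 2054 and 1826 counts after IL-4 and log2 ratios of -1.10 (-1.18 to -1.03) and -0.88 (-0.97 to -0.80), the latter at -0.36 on the deposited TPM scale. Alox5 had 22 counts after IL-4 in WT, a log2 ratio of -1.15 (-1.95 to -0.38), and 44 in Zmynd8 cKO, a ratio of -0.34 whose limits of -0.96 to 0.29 include no change. Alox5ap was at -0.16 in WT and -0.75 in Zmynd8 cKO. Beside these ratios stand the neutrophil markers of the IL-4 libraries, 382 and 514 CPM against 2.33 and 2.35 CPM in NT, and neutrophils are known to express Alox5, Alox5ap and Ptgs2. B cell markers, nearly all Cd79b, were 11.1 and 17.2 CPM against 1.53 and 4.69 CPM in NT. Dendritic cell markers were 5.28 and 5.40 CPM against 1.56 and 0.62 CPM, although Xcr1 in WT fell from 27 to 15 counts. Eosinophil markers were 3.77 and 4.36 CPM against 1.87 and 2.52 CPM. The part of such RNA in the ratios was not tested.

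**Figure D2:**
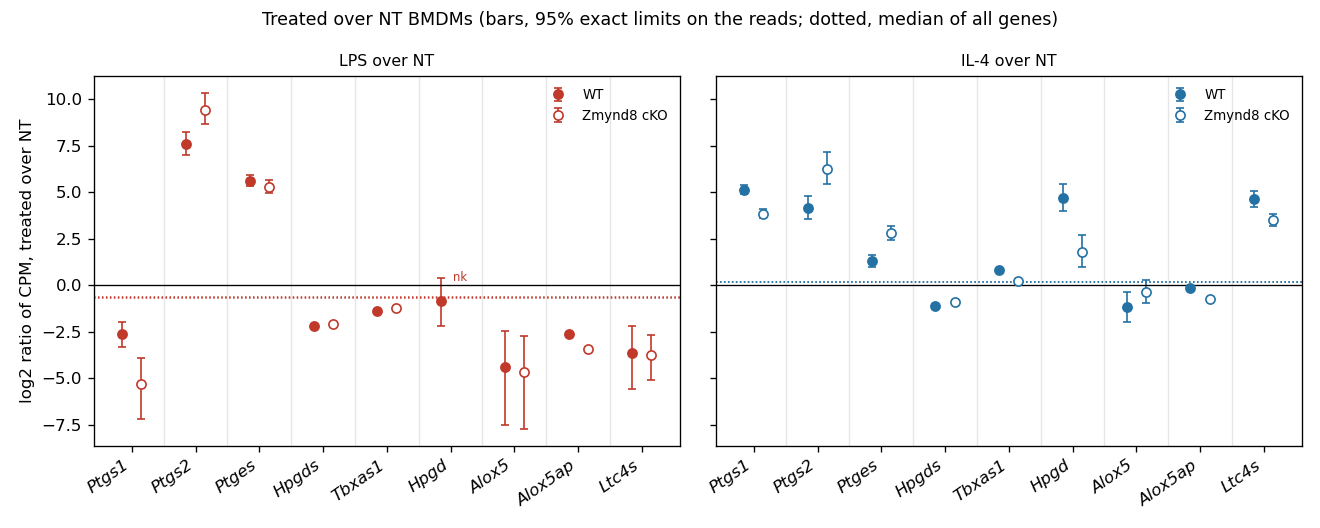
Log2 ratio of CPM in LPS over NT (left) and IL-4 over NT (right), with filled points for WT, open points for Zmynd8 cKO, bars for 95% exact limits on the reads, dotted lines for the median of all genes, and nk for a gene with too few counts. After LPS, Ptgs2 at 7.58 and 9.44 and Ptges at 5.63 and 5.31 stand above 0, while after IL-4 Ptgs1, Ptgs2, Hpgd and Ltc4s all stand above 1.8.

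Whether loss of Zmynd8 changed these genes was read from the ratio of Zmynd8 cKO over WT within each treatment. Without treatment 6 of the 9 members were called, 3 higher and 3 lower, where 59.9% of 12463 genes were called, 28.1% higher and 31.7% lower, and none reached a fold change of 2, where 8.65% of all genes did. After LPS 6 members had enough counts and 4 were called, 2 higher and 2 lower, where 44.6% of 12386 genes were called, 27.1% higher and 17.5% lower, and 2 reached a fold change of 2, where 5.18% of all genes did. After IL-4 6 of the 9 were called, 3 higher and 3 lower, where 37.6% of 13245 genes were called, 20.8% higher and 16.8% lower, and 5 reached a fold change of 2, where 6.92% of all genes did. Members were chosen with such values known, so these counts describe that choice.

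In non-treated cells the leukotriene genes Ltc4s and Alox5ap were higher in Zmynd8 cKO. Ltc4s had 53 counts in WT and 91 in Zmynd8 cKO, a log2 ratio of 0.99 (0.49 to 1.51), or 1.99-fold. Alox5ap had 7154 and 9379 counts, a log2 ratio of 0.60 (0.56 to 0.65). Hpgds had 4077 and 2915 counts, a log2 ratio of -0.27 (-0.34 to -0.20), which sits at the fold rule and lost its call under TMM, at -0.24, and was at -0.73 on the deposited TPM scale. The other 3 calls had limits that include no change: Ptgs2 at -0.67 on 24 and 13 counts, Ptges at -0.42 on 110 and 71 counts, and Alox5 at 0.31 on 45 and 48 counts. Ptgs1 at 0.25, Tbxas1 at 0.20 and Hpgd at 0.13 were not called. Markers of other cells moved in the same comparison, on low levels: B cell markers from 1.53 to 4.69 CPM, megakaryocyte and platelet markers from 4.46 to 7.79 CPM and dendritic cell markers from 1.56 to 0.62 CPM. Of the B cell markers, Cd79b had 35 and 102 counts and the others at most 3. The macrophage markers summed to 6244 and 6492 CPM, while among them Mertk had 2590 and 913 counts, Fcgr1 20642 and 10129, Adgre1 28092 and 19702, and Cd68 66955 and 78312. The part of these shifts in the ratios was not tested.

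After LPS the 2 genes of the prostaglandin E2 route parted. Ptgs2 had 4351 counts in WT and 9384 in Zmynd8 cKO, a log2 ratio of 1.197 (1.14 to 1.25), or 2.29-fold. Ptges had 5178 and 2915 counts, a log2 ratio of -0.74 (-0.81 to -0.68), or 1.67-fold lower. Ptgs1 had 23 and 4 counts, a log2 ratio of -2.44 with wide limits of -4.43 to -0.89, and -0.72 with a pseudocount of 1. Tbxas1 had 1925 and 2260 counts, a log2 ratio of 0.32 (0.23 to 0.41). In WT and Zmynd8 cKO after LPS the megakaryocyte and platelet markers were 2.33 and 0.90 CPM and the neutrophil markers 4.22 and 2.56 CPM. The dendritic cell markers were 10.8 and 13.9 CPM. The part of these markers in the ratios was not tested.

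Hpgds and Alox5ap were below the fold rule after LPS. Hpgds had 845 and 721 counts, a log2 ratio of -0.14 (-0.29 to 0.00), and Alox5ap 1123 and 922 counts, a ratio of -0.20 (-0.32 to -0.07). The other 3 had too few counts to be kept: Hpgd had 9 and 1, Alox5 2 and 2, and Ltc4s 4 and 7 counts in WT and Zmynd8 cKO. The limits were -8.54 to -0.23 for Hpgd, and those of Alox5 (-3.70 to 3.87) and Ltc4s (-1.08 to 3.12) include no change.

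After IL-4 the cyclooxygenases parted as well. Ptgs1 had 5637 counts in WT and 2531 in Zmynd8 cKO, a log2 ratio of -1.04 (-1.10 to -0.97), or 2.05-fold lower. Ptgs2 had 465 and 1140 counts, a log2 ratio of 1.41 (1.26 to 1.57), or 2.66-fold higher. Ptgs1 made up 12.6% of the summed TPM of the 9 members in WT and 6.98% in Zmynd8 cKO. Ptges had 294 and 579 counts, a log2 ratio of 1.097 (0.89 to 1.30), the opposite direction to that after LPS, and was at 0.72 on the deposited TPM scale. Among the label checks, the genes that respond to LPS were also higher in Zmynd8 cKO after IL-4. The log2 ratios were 1.73 for Tnf and 1.63 for Il1b. They were 2.54 for Nos2, on 35 and 187 counts, and 3.34 for Il6, on 6 and 56 counts.

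Hpgd showed the widest difference of the 9 after IL-4, and it was one of the values that chose the members. It had 473 counts in WT and 65 in Zmynd8 cKO, a log2 ratio of -2.74 (-3.14 to -2.37), or 6.70-fold lower. Tbxas1 had 10083 and 6986 counts, a log2 ratio of -0.41 (-0.45 to -0.37). Alox5 had 22 and 44 counts, a log2 ratio of 1.12 with limits of 0.35 to 1.93, and 0.60 with a pseudocount of 1. Between the same libraries the neutrophil markers were 382 and 514 CPM, B cell markers 11.1 and 17.2 CPM and megakaryocyte and platelet markers 7.15 and 10.9 CPM. Of the B cell markers, Cd79b had 310 and 441 counts and the others at most 6. The part of these marker shifts was not tested.

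Of the abundant or induced members, 3 differed little between genotypes after IL-4. Hpgds had 2054 and 1826 counts, a log2 ratio of -0.05 (-0.14 to 0.04). Alox5ap had 6916 and 6455 counts, a ratio of 0.02 (-0.03 to 0.07). Ltc4s had 1415 and 1206 counts, a ratio of -0.11 (-0.22 to 0.00). These limits leave out a fold change of 1.2 in either direction, as far as counting error goes.

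**Figure D3:**
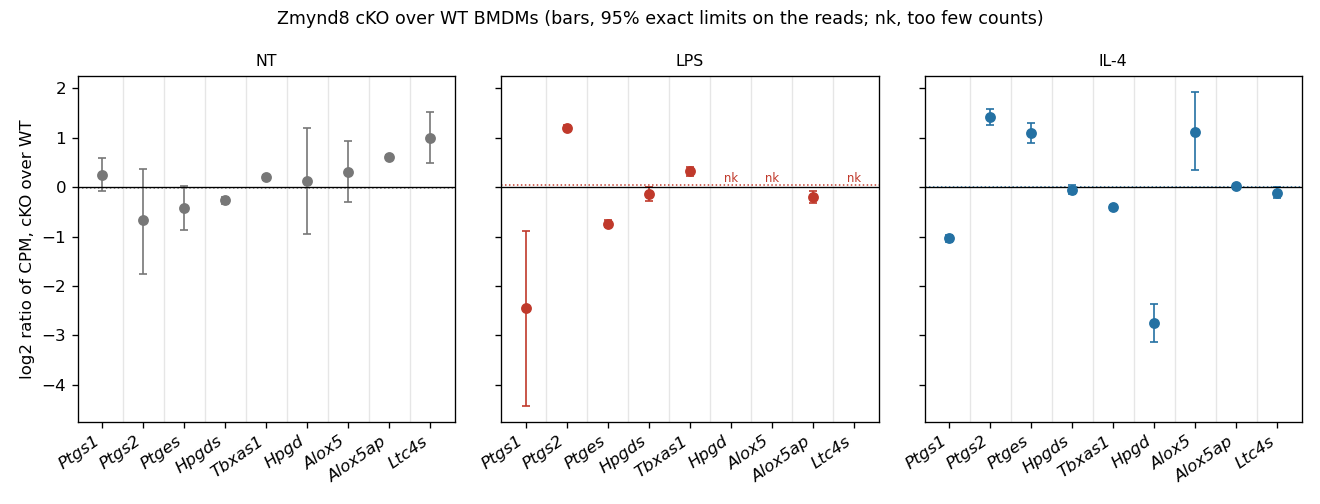
Log2 ratio of CPM in Zmynd8 cKO over WT BMDMs without treatment, after LPS and after IL-4, with bars for 95% exact limits on the reads, dotted lines for the median of all genes, and nk for a gene with too few counts. Ptgs2 lies at -0.67, 1.197 and 1.41 in the 3 panels, Ptges at -0.42, -0.74 and 1.097, and Hpgd after IL-4 is the lowest point at -2.74.

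As a frame, 45 other genes of the same pathway were listed by role: release of arachidonic acid, other synthases, other lipoxygenase route enzymes, breakdown, transport and receptors. Without treatment 28 of the 45 were kept, with 13 higher and 4 lower in Zmynd8 cKO and a median log2 ratio of 0.22, against 28.1% higher, 31.7% lower and a median of -0.02 for all genes. After LPS 28 were kept, with 11 higher and 9 lower and a median of 0.00, against 27.1%, 17.5% and 0.04 for all genes. After IL-4 28 were kept, with 7 higher and 5 lower and a median of -0.01, against 20.8%, 16.8% and 0.01. Named below are the called genes with the 3 highest and 3 lowest ratios that averaged 100 counts or more.

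Without treatment the secreted phospholipase Pla2g2e had 48 counts in WT and 163 in Zmynd8 cKO, a log2 ratio of 1.98 (1.51 to 2.47). Cyp4f18, a cytochrome P450 that hydroxylates leukotriene B4, was at 1.36, and the glutathione transferase Mgst3 at 0.95. The prostaglandin E2 receptor gene Ptger1 had 254 and 78 counts, a log2 ratio of -1.49 (-1.87 to -1.12). The leukotriene receptor gene Cysltr1 was at -0.73 and the reductase gene Ptgr2 at -0.33. After LPS the highest were the prostaglandin E2 receptor genes Ptger4, with 168 and 399 counts and a log2 ratio of 1.34 (1.07 to 1.60), and Ptger1 at 0.99, then Cyp4f18 at 0.91. The lowest were Cbr1 at -0.50, Akr1b3 at -0.42 and the phospholipase Pla2g15 at -0.42.

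After IL-4, Cyp4f18 had 698 counts in WT and 2477 in Zmynd8 cKO, a log2 ratio of 1.95 (1.83 to 2.07), and was thus higher in Zmynd8 cKO in each of the 3 treatments. The cytosolic phospholipase Pla2g4a, which frees arachidonic acid, was at 0.72 (0.63 to 0.81) and the exporter Abcc4 at 0.47. The lowest were Ggt5, which converts leukotriene C4, at -0.87, Pla2g15 at -0.34 and Pla2g12a at -0.30. For the treatments themselves, Pla2g4a was higher after LPS in WT, with 466 and 2853 counts and a log2 ratio of 2.69, and in Zmynd8 cKO at 2.42. Mgst3 was the lowest after LPS, at -2.90 and -4.47. Pla2g15 and Ptger4 were the highest shared names after IL-4, Pla2g15 at 2.49 and 2.39 and Ptger4 at 2.67 and 2.66 in WT and Zmynd8 cKO.

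In the libraries labelled Raw264.7 the deposited values turned out to be whole reads divided by a factor per library, so the reads could be counted. Reads are set side by side here for 1 gene at a time, since they are not divided by gene length. Ptgs2 had 5206 reads with WT Zmynd8, 12791 with D/E-A and 9234 in Zmynd8 KO, and Ptges 9861, 12380 and 9971. In the WT p65, K122R and p65 KO libraries Ptgs2 had 60996, 41237 and 63047 reads, while Ptges had 71, 157 and 45. Ptges RNA was thus plentiful in all 3 libraries of the first set and scarce in all 3 of the second, while Ptgs2 reads were more numerous in the second.

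Alox5ap had 2237, 1783 and 2592 reads in the WT Zmynd8, D/E-A and Zmynd8 KO libraries and 105, 115 and 101 in the WT p65, K122R and p65 KO libraries. Hpgds had 422, 391 and 407 reads in the first set and 97, 120 and 114 in the second, and Tbxas1 had 554, 451 and 589, then 138, 92 and 134. Hpgd had 37, 127 and 64 reads in the first set and 1, 0 and 0 in the second. Taking 3 counts as the limit, a count of 0 allows up to 0.180 CPM in the K122R library and 0.198 CPM in the p65 KO library. The first set also held the neutrophil markers and Xist given above, and treatment, line and these signals cannot be told apart between the sets.

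**Figure D4:**
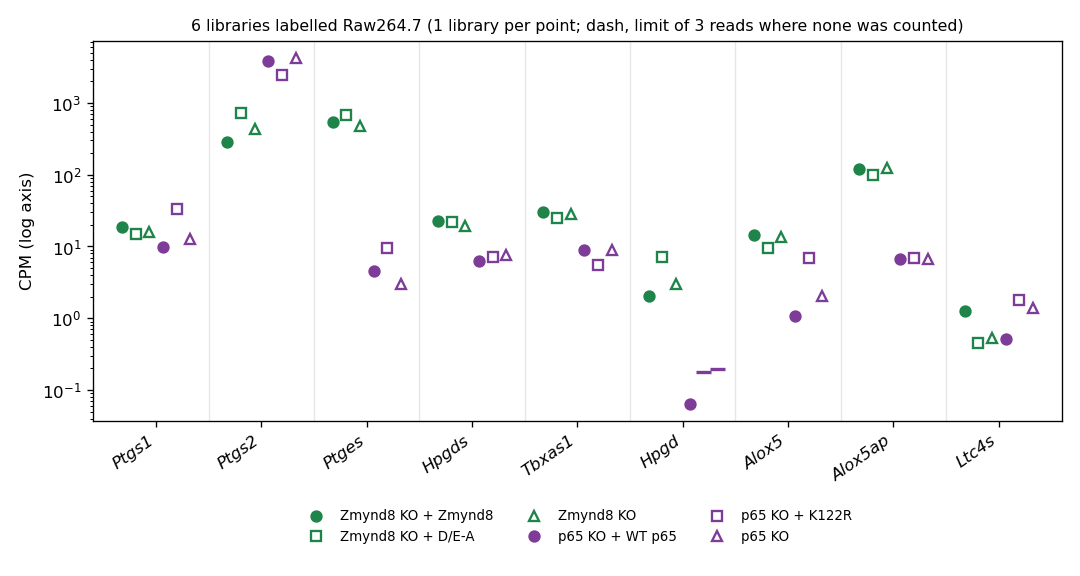
CPM (log axis) of the 9 genes in the 6 libraries labelled Raw264.7, green for the 3 Zmynd8 libraries and purple for the 3 p65 libraries, 1 library per point, with a dash at the limit of 3 reads where no read was counted. Ptgs2 is highest in the p65 libraries, and Ptges, Alox5ap and Hpgd are higher in the Zmynd8 libraries than in any p65 library.

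Compared with WT Zmynd8, within 1 table of deposited values, D/E-A had 6 of the 9 members called, 3 higher and 3 lower, where 72.8% of 12770 genes were called, 36.8% higher and 36% lower. No gene of that table had fewer than 21 reads with WT Zmynd8, while the lowest with D/E-A had 0, so genes lower than this with WT Zmynd8 are not in these shares. At a fold change of at least 2 there were 3 members, beside 18.8% of all genes. Hpgd had the highest ratio, a log2 ratio of 1.85 (1.31 to 2.42) on 37 and 127 reads. Ptgs2 was at 1.36 (1.32 to 1.41), or 2.57-fold, and Ptges at 0.40 (0.36 to 0.43). Lower were Ltc4s at -1.46 (-2.83 to -0.24) on 23 and 8 reads, just above that minimum, Alox5 at -0.58 (-0.86 to -0.29) on 270 and 173, and Ptgs1 at -0.30 (-0.53 to -0.06). The neutrophil markers were 4422 CPM with D/E-A and 10354 CPM with WT Zmynd8, the macrophage markers 3244 and 1969 CPM, the eosinophil markers 67.8 and 191 CPM, and the megakaryocyte and platelet markers 173 and 262 CPM. Platelets are known to express Ptgs1 and Tbxas1. The 18S ribosomal RNA gene Rn18s-rs5 took 6.504% of reads with D/E-A and 13.7% with WT Zmynd8. The part of these 5 measures in the ratios was not tested.

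Zmynd8 KO was set against the same WT Zmynd8 library, in another table. Of the 9 members 3 were called, 2 higher and 1 lower, where 63.3% of 14484 genes were called, 34.9% higher and 28.4% lower, and 1 reached a fold change of 2, where 11.6% of all genes did. Ptgs2 was at 0.71 (0.66 to 0.76), Hpgd at 0.67 (0.06 to 1.29) on 37 and 64 reads, and Ltc4s at -1.19 (-2.37 to -0.09) on 23 and 11 reads. The other 6 lay between -0.17 and 0.09. Beside these, the neutrophil markers were 6966 CPM in Zmynd8 KO and 10354 CPM with WT Zmynd8, the macrophage markers 2629 and 1969 CPM, the eosinophil markers 131 and 191 CPM, the megakaryocyte and platelet markers 223 and 262 CPM, the B cell markers 119 and 161 CPM, and Rn18s-rs5 11.1% and 13.7% of reads. Their part was not tested. Since both comparisons share the WT Zmynd8 library, that library's Ptgs2, Hpgd and Ltc4s reads enter both ratios.

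Compared with WT p65 after LPS, K122R had 7 of the 8 members kept called, 5 higher and 2 lower, where 55.3% of 13460 genes were called, 26.6% higher and 28.7% lower. At a fold change of at least 2 there were 4 members, beside 10% of all genes. The leukotriene genes Alox5, with 17 and 116 reads and a log2 ratio of 2.83 (2.08 to 3.65), and Ltc4s, with 8 and 30 reads and a ratio of 1.96 (0.80 to 3.30), were the 2 highest. Ptgs1 had 152 and 556 reads, a ratio of 1.93 (1.67 to 2.19), and Ptges 71 and 157 reads, a ratio of 1.2002 (0.79 to 1.63). Hpgds was at 0.36, and its limits, -0.04 to 0.76, include no change.

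The other 2 called members were lower with K122R. Ptgs2 had 60996 and 41237 reads, a log2 ratio of -0.51 (-0.53 to -0.49), or 1.42-fold lower. Tbxas1 had 138 and 92 reads, a ratio of -0.53 (-0.93 to -0.14). Alox5ap was at 0.19 and not called. Rela itself was at 1.92 in this comparison, on 1601 and 5850 reads, and Zmynd8 at -0.72 (-0.83 to -0.61), on 1826 and 1070 reads. Rn18s-rs5 took 0.179% of reads with WT p65 and 0.509% with K122R, and the dendritic cell markers summed to 15.9 and 25.0 CPM. Of these markers only Xcr1 was higher with K122R, at 146 and 319 reads. Zbtb46 had 97 and 92 reads and Clec9a 6 and 5. The part of these shifts in the ratios was not tested.

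p65 KO, set against the same WT p65 library, had 5 of the 8 members kept called, 4 higher and 1 lower, where 39.2% of 13451 genes were called, 19.6% in each direction, and 1 at a fold change of 2, where 4.84% of all genes were. Ltc4s had 8 and 21 reads, a log2 ratio of 1.44 (0.21 to 2.83). Alox5 was at 0.92 (0.02 to 1.86) on 17 and 31 reads, Ptgs1 at 0.37 (0.06 to 0.69), Hpgds at 0.28 (-0.12 to 0.69) and Ptges at -0.61 (-1.18 to -0.05). Ptgs2 had 63047 reads against 60996, a ratio of 0.10 (0.08 to 0.11), below the fold rule. Tbxas1 and Alox5ap were at 0.01 and -0.01. The dendritic cell markers were 24.3 CPM in p65 KO, and Rn18s-rs5 took 0.205% of reads. All 5 calls rest on fewer than 200 reads in each library.

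**Figure D5:**
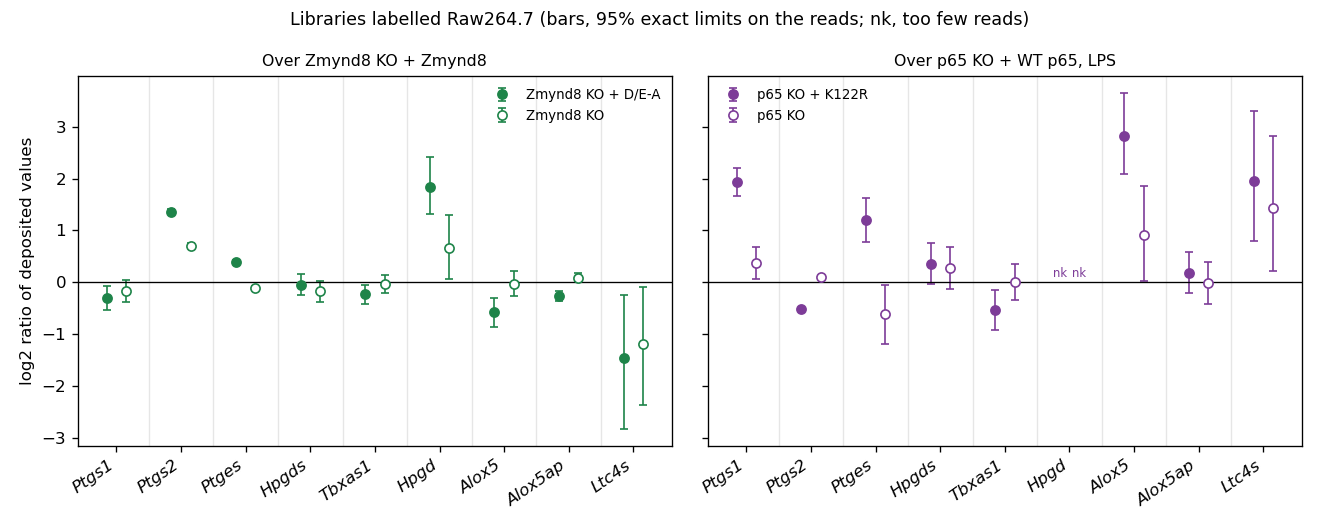
Log2 ratio of deposited values over WT Zmynd8 (left; filled, D/E-A; open, Zmynd8 KO) and over WT p65 after LPS (right; filled, K122R; open, p65 KO), with bars for 95% exact limits on the reads and nk for a gene with too few reads. Ptgs2 lies at 1.36 and 0.71 on the left and at -0.51 and 0.10 on the right, and Alox5 with K122R is the highest point at 2.83.

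Of the 45 other pathway genes, 31 were kept with D/E-A, 9 higher and 13 lower with a median log2 ratio of -0.19, against 36.8%, 36% and 0.02 for all genes. With Zmynd8 KO 33 were kept, 10 higher and 10 lower with a median of -0.04, against 34.9%, 28.4% and 0.06. Pla2g4a had 969 reads with WT Zmynd8, 2661 with D/E-A and 2330 in Zmynd8 KO, log2 ratios of 1.52 and 1.14. Cyp4f18 was the lowest with D/E-A, at -1.82 on 1425 and 386 reads, and at -0.72 in Zmynd8 KO, and the leukotriene B4 receptor gene Ltb4r1 was at -1.64 and -0.54. With K122R 27 were kept, 7 higher and 7 lower with a median of 0.03, against 26.6%, 28.7% and -0.02 for all genes, and the prostacyclin receptor gene Ptgir had 124 and 460 reads, a ratio of 1.95. In p65 KO 26 were kept, 7 higher and 2 lower with a median of 0.12, against 19.6% in each direction and -0.02 for all genes, with the 3 named genes Mgst3 at 0.59, Pla2g4a at 0.50 and Dpep2 at 0.46.

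For Ptgs2 and Hpgd the genes with the most similar pattern over the 6 BMDM libraries were found by Pearson's r of log2(CPM + 1) among 9933 genes that averaged 100 counts or more. For Ptgs2 they were Dcbld2 (r = 0.996), Tgm2 (r = 0.996) and the interleukin gene Il1b (r = 0.994). Il1b had 42 and 32 counts without treatment, 1626 and 4137 with LPS, then 374 and 1066 with IL-4, in WT and Zmynd8 cKO. For Hpgd they were Fermt3 (r = 0.986), Pxmp4 (r = 0.978) and Tor4a (r = 0.973). The 6 points share 3 treatments and 2 genotypes, and with this many genes a high r is easily met, so the names are a description.

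Genes that overlap a member on its own strand could share its reads. Genes on the other strand could do so where strand was not used in counting. The use of strand is not given in the sources used here. In the GENCODE annotation of mm10, Tbxas1 (chr6:38875404-39084585, plus strand) overlaps the protein-coding gene Hipk2 on the other strand over 762 bases and the antisense genes Gm42962 and 1700025N23Rik. Ltc4s (chr11:50236461-50238616, minus strand) overlaps the antisense gene Gm26542 over 1664 bases, and Alox5ap (chr5:149264767-149288153, plus strand) the antisense gene Gm19719. Ptgs2 (chr1:150100031-150108227, plus strand) and Alox5 (chr6:116410077-116461178, minus strand) overlap no other gene. Hpgd (chr8:56294585-56321043, plus strand) overlaps the unclassified gene Gm45540 on its own strand. Also on the member's own strand, Ptges overlaps the processed pseudogene Gm13400 over 380 bases, and Tbxas1 the small nucleolar RNA gene Gm23010. On the other strand, Ptgs1 overlaps the unclassified gene Gm43621, Hpgds the processed pseudogene Gm17147 and Alox5ap the ribosomal RNA gene n-R5s180.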

How the data were processed

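RNA-seq was analysed in 12 libraries, with groups taken from the labels and conditions from the labels and the Methods. For BMDMs the authors deposited estimated counts (expected counts) per gene, undivided, and TPM. The TPM column of IL-4-treated WT cells was handled as a score, since 2 broken entries push its sum past the TPM limit, and is otherwise deposited TPM. Methods name TopHat and the mm10 transcriptome, and the submitters' processing notes name CASAVA 1.4 and Bowtie 0.12.2. For the Raw264.7 libraries the authors deposited 1 signal value per gene, normalized within each of 4 tables. The D/E-A table lists 12770 genes, so that library's total covers only those. These values were whole reads, within 0.02 reads, divided by a factor for 100% of genes in each library except Zmynd8 KO, where the Zmynd8 value was not. Deposited fold changes and p-values were left aside, as were 2 columns of values with no label.

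Expected counts were rounded and divided by library totals (CPM). Of the table entries, 431 in NT and in LPS and 2 in IL-4 were no genes and held no counts. Comparisons were plain ratios of CPM or of deposited values with no pseudocount, for genes averaging 10 counts or more in BMDMs, or an average deposited value of 10 or more in Raw264.7, and a 1.2-fold difference was called. With 1 library per group there is no test of conditions. The 95% Clopper-Pearson limits take each read as independent, which PCR copies are not, and cover counting error only. Alternatives were a 2-fold rule, a minimum average of 50, no filter, a pseudocount of 1 or 0.1, TMM (edgeR 4.0.16, R 4.3.3), median ratios, deposited TPM, library totals for Raw264.7 and an exact binomial test on reads. The statistics were tested on simulated counts for a pair of libraries, with counting error only. That check holds no spread between replicates, so it says nothing about such spread. Python 3.11.15, pandas 2.3.3 and scipy 1.17.1 were used.

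Named genes are the 9 members, the label checks (Zmynd8, Rela, Nos2, Arg1 and others), the pathway genes with the 3 highest and 3 lowest called ratios at a mean of at least 100, and the 3 genes most like Ptgs2 and Hpgd. Xist was added after its values were seen. The marker lists also covered mast cells and basophils, megakaryocytes and platelets, B cells, eosinophils, dendritic cells and fibroblasts. In BMDMs these other lists summed to at most 17.2 CPM in any library, in the Zmynd8 libraries to at most 262 CPM, led by Itga2b, and in the p65 libraries to at most 25.0 CPM. The members and lists were chosen with earlier results of these data known.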

Additional observations from a re-analysis of the deposited data

Results flagged for a closer look

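In 5 places a member was called higher in Zmynd8 cKO over WT under 1 treatment and lower under another. Each treatment has 1 library per genotype, so the difference was not tested. The log2 ratio of Ptgs2 was larger by 1.87 after LPS than without treatment (1.197 and -0.67) and larger by 2.08 after IL-4 than without treatment (1.41 and -0.67). Both rest on 24 and 13 counts in NT cells, where the limits of -1.77 to 0.36 include no change. The ratio of Ptges was larger by 1.52 after IL-4 than without treatment (1.097 and -0.42), where the NT limits of -0.87 to 0.03 include no change, and larger by 1.84 after IL-4 than after LPS (1.097 and -0.74), where both sets of limits leave out no change. The ratio of Tbxas1 differed by -0.73 between IL-4 and LPS (-0.41 and 0.32). The IL-4 libraries also held neutrophil markers at 382 and 514 CPM, against 4.22 and 2.56 CPM after LPS, and their part in these differences was not tested.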

How the results depend on the processing

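No paired analysis was possible because each group has 1 library, and for the same reason no replicate could be left out. Without treatment, the 6 members called in Zmynd8 cKO against WT became 0 at a fold change of at least 2 and 3 with an adjusted p under 0.05 in the exact binomial test on reads. At a fold change of at least 2 the counts became 2 of 4 after LPS, 5 of 8 for IL-4 over NT in Zmynd8 cKO, 3 of 6 for D/E-A, 1 of 3 for Zmynd8 KO, 4 of 7 for K122R and 1 of 5 for p65 KO. With a mean of at least 50 they became 1 for Zmynd8 KO and 3 for p65 KO, and the exact binomial test left 1 for p65 KO. Over all genes that test called from 2779 (p65 KO, on recovered reads) to 10556 (LPS over NT, WT), and 5226 for K122R, 6524 for Zmynd8 KO and 7901 for D/E-A. It compares 2 libraries, not conditions. The other counts stayed within 1.5 times under every alternative run. Of 397 members' ratios recomputed under another scaling, pseudocount or TPM, no called one changed sign, 71 left the counting limits and 12 changed a call, each close to the fold rule except Hpgd for LPS over NT in WT, at -0.84 and, under TMM, -0.26. Of the uncalled ratios 5 changed sign. With deposited TPM these were, for Zmynd8 cKO against WT, Tbxas1 (0.20 to -0.02) and Hpgd (0.13 to -0.14) without treatment, Hpgds after LPS (-0.14 to 0.13) and Alox5ap after IL-4 (0.02 to -0.02), and with TMM Alox5ap in p65 KO (-0.01 to 0.02). With deposited TPM, Alox5 for LPS over NT in Zmynd8 cKO was at -3.13 in place of -4.64. TMM moved the median of all genes by 0.58 and 0.56 for LPS over NT and by -0.18 and -0.23 for IL-4 over NT in WT and Zmynd8 cKO. Library totals moved it by -0.14 for K122R, and Hpgds lost its call there.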
